A study of Mus musculus with 8 samples.

Results

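Dyneins are motors that walk along microtubules, and 29 of the 12587 genes in the deposited splicing tables carried a dynein gene symbol. They were taken by symbol alone: every gene whose name begins with Dnah, Dnai, Dnal or Dnaaf and a digit, with Dnali, or with Dync. The rule uses names and no measured value. No symbol beginning with Dnai and a digit was in the tables. The outer arm intermediate chains are listed there under Dnaic symbols and are counted with the related genes further on. The 29 genes fell into 5 roles. The outer arm heavy chains were Dnah5, Dnah8, Dnah9, Dnah11 and Dnah17. The other axonemal heavy chains were Dnah1, Dnah2, Dnah3, Dnah6, Dnah7a, Dnah7b, Dnah7c, Dnah10, Dnah12 and Dnah14. Dnal1, Dnal4 and Dnali1 encode light or light intermediate chains. Dnaaf1, Dnaaf2, Dnaaf3 and Dnaaf5 encode assembly factors. Dync1h1, Dync1i1, Dync1i2, Dync1li1, Dync1li2, Dync2h1 and Dync2li1 encode subunits of the cytoplasmic dyneins. Of these, 28 genes were in the spermatocyte tables and 27 in the round spermatid tables. Dnah5 was listed in round spermatids only, and Dync1li1 and Dync2li1 in spermatocytes only.

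As background, the sperm tail is built round an axoneme, a ring of microtubule doublets that slide past each other when rows of dynein arms pull on them. Each arm holds heavy chains, which are the ATP-driven motors, with intermediate and light chains. Arms are put together in the cytoplasm by assembly factors before they reach the axoneme. Cytoplasmic dynein 1 carries cargo along cytoplasmic microtubules, and dynein 2 returns cargo from the tip of a growing cilium. Axoneme formation begins in the round spermatid, the haploid cell that follows the meiotic spermatocyte.

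Polyadenylated RNA was sequenced from spermatocytes and round spermatids of adult C57BL/6 mice, sorted by FACS after staining with a Hoechst DNA dye. The 4 labelled groups were Larp7 knock-out round spermatids, Larp7 knock-out spermatocytes, Wildtype round spermatids and Wildtype spermatocytes, with 2 libraries each and 8 in all. The series design calls the knock-out conditional. The Cre line that drives the deletion is not given in the sources used here, nor is the age beyond adult. The tables number their sample groups without naming a genotype. Differences within a stage are therefore the first minus the second sample group, with no genotype direction, and it is not known that the number marks the same genotype in both stages. The labels do not say that the libraries came from separate animals, so p-values measure the spread between these libraries.

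In the 10 tables a row is 1 splicing event: a cassette exon, a mutually exclusive pair of exons, an alternative splice site or a retained intron. Reads of the included and the skipped form are given for every library. Event reads summed to between 49904607 and 93265932 per round spermatid library and to between 51786242 and 102000320 per spermatocyte library, and overlapping events share reads. Gene levels are given as RPM, reads of a gene's most covered event per 1000000 such reads of all genes. The sorted stages differed in their markers. The 12 round spermatid markers in both tables summed to 5543 to 6091 RPM in round spermatids, against 2008 to 2317 in spermatocytes, and 12 of 12 passed the test as higher. The 5 elongating spermatid markers summed to 14910 to 24210 RPM in round spermatids, against 2589 to 3684 in spermatocytes. The 12 spermatocyte markers summed to 7327 to 10830 RPM in round spermatids, against 13260 to 16760 in spermatocytes. Of these, 10 passed as lower and 1 as higher.

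The promoters of 25 of the 29 genes, in 26 entries, were matched in RefSeq (GRCm38.p6), each reaching 250 bases before to 50 after the start site. They are shown because Dnah7a, Dnah7b and Dnah7c, near-identical copies on chromosome 1, were lower together in round spermatids, and their promoters share a stretch that other dynein promoters also hold. The letters GTTGC, then any 3 bases, G, any 2 bases and AC were searched on both strands. This motif resembles the X-box, which regulatory factor X (RFX) proteins bind and which is known from promoters of ciliary genes. It was found in 6 of the 26 dynein promoters and in 1.44% of all 32851 promoters. This spelling was chosen after others had been tried on these promoters, so the share is a description. In the lines below, capitals mark the match, and the strand is that of the gene.
Dnah7a, chr1:53706809-53706861, minus strand: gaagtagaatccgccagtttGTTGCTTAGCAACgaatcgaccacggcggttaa
Dnah7b, chr1:46066809-46066861, plus strand: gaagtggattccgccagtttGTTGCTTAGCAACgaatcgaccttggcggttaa
Dnah7c, chr1:46425429-46425481, plus strand: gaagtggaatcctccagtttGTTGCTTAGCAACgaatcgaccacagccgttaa
Dnah6, chr6:73221635-73221687, minus strand: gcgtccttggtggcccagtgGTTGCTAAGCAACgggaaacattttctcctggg
Dnah9, chr11:66168601-66168653, minus strand: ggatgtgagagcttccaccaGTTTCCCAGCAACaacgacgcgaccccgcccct
Dnal4, chr15:79774418-79774464, minus strand: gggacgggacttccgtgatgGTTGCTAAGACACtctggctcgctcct

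The match began 57, 24 and 69 bases before the start sites of Dnah7a, Dnah7b and Dnah7c, 36 before that of Dnah6 and 82 before that of Dnah9. That of Dnal4 began at base 24 after the start site. In Dnah6 and the Dnah7 copies the pattern matches on both strands, and in Dnah9 it lies on the strand opposite to the gene. The shorter motif GTTGCC, which can lie within the longer one, was in 10 of the 26 dynein promoters and in 12.5% of all promoters. The cyclic AMP response element TGACGTCA was in 1 of the 26 and in 1.79% of all. These matches are letters in a window and say nothing of binding. The 6 genes did not share a direction between stages: the Dnah7 copies and Dnah6 were lower in round spermatids, and Dnah9 and Dnal4 were higher.

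Compared per length, as RPM per kilobase of the form, Dnaaf1 was the most covered dynein gene in both stages. Its median over 4 libraries was 4608 (4218 to 4996) in round spermatids and 3810 (3332 to 4081) in spermatocytes. Dnaaf1 is a leucine-rich repeat protein needed for arm assembly. In round spermatids Dnali1 came next, with a median of 1696 (1303 to 1812), followed by Dnah8 with 1029 (716.5 to 1363), and the ranges of these 2 genes overlapped. In spermatocytes the second place was held by Dnah8, with 2401 (2030 to 2847), and the third by Dnah17, with 1170 (1103 to 1285). Their ranges did not overlap. At the low end, Dnah11 had medians of 2.56 in round spermatids and 0.720 in spermatocytes, and Dnah5 had 5.55 in round spermatids. Dnah11 had too few reads to be tested in either stage. Dnah5, Dnah9 and Dnah11 are outer arm heavy chains known from motile cilia of other organs, while Dnah8 and Dnah17 are known as the outer arm heavy chains of sperm.

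Between stages, 10 of 13 tested axonemal heavy chains passed as lower in round spermatids and 2 as higher. Of 3 light chains, 2 passed as higher and 0 as lower, which is too few genes for a contrast between the roles. Of 25 dynein genes tested, 20 changed by limma with an adjusted p below 0.05, 5 higher and 15 lower in round spermatids, 1 of the 5 being Dnaaf3 through a single event. Over all genes 78.3% changed, 28.5% higher and 49.8% lower, so the dynein count lies near the background and is no result about dyneins. The median log2 difference was -0.76 over the 25 dynein genes and -0.45 over all genes. With median-ratio scaling in place of library sums the median of all genes was -0.02, and 8 dynein genes were then higher and 13 lower, where 38.3% of all genes were higher and 37.1% lower. Each stage holds 2 knock-out and 2 Wildtype libraries, and a stage difference compares the mean of the 2 sample groups of each stage. It is therefore not a difference in Wildtype cells alone, and an SD over 4 libraries includes any gap between sample groups. In bulk RNA, fewer cells of a type and less RNA per cell cannot be told apart.

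Dnah8, the outer arm heavy chain of sperm, fell. In round spermatids it had 547.6 and 514.5 RPM in libraries of the first sample group, against 283.2 and 266.9 in those of the second. In spermatocytes it had 852.9 and 1217 in libraries of the first sample group, against 1040 and 891.0 in those of the second. Every round spermatid library lay below every spermatocyte library, and the round spermatid groups stood apart from each other. The log2 difference was -1.37 ± 0.13 (SE, limma adjusted p = 4.7e-07). Dnah17, its sperm outer arm partner, had 248.2, 247.6, 134.3 and 174.3 RPM in round spermatids, against 452.8, 524.1, 438.0 and 476.3 in spermatocytes. Its log2 difference was -1.28 ± 0.12 (SE, limma adjusted p = 5.7e-07), and the stages did not overlap.

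The largest fall was that of Dnah2, an inner arm heavy chain. It had 103.2, 102.5, 69.0 and 71.1 RPM in round spermatids, against 284.2, 325.4, 383.3 and 391.3 in spermatocytes. The means were 86.5 ± 19.0 in round spermatids and 346.1 ± 50.7 in spermatocytes (SD, n = 4 each), 4.0-fold lower. The log2 difference was -2.01 ± 0.11 (SE, limma adjusted p = 3.9e-09), and each of its 12 common events was lower, from -3.04 to -1.97. Dnah1, also of the inner arms, averaged 76.7 ± 12.5 in round spermatids and 186.4 ± 28.3 in spermatocytes (SD, n = 4 each). Dnah12 averaged 69.8 ± 17.4 in round spermatids and 149.6 ± 11.6 in spermatocytes. Dnah14, a heavy chain of less settled place, averaged 58.9 ± 19.2 in round spermatids and 179.5 ± 17.8 in spermatocytes. Their log2 differences of -1.28, -1.13 and -1.66 all passed the test, with SEs from 0.13 to 0.14, and none of the 3 overlapped between stages.

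The Dnah7 copies encode inner arm heavy chains and fell together. Dnah7a had 64.1, 48.0, 37.0 and 36.8 RPM in round spermatids, against 103.1, 100.3, 102.0 and 95.9 in spermatocytes. Dnah7b had 88.3, 62.7, 64.9 and 56.0 in round spermatids, against 222.7, 227.5, 224.5 and 236.7 in spermatocytes. Dnah7c had 74.8, 60.2, 52.1 and 50.2 in round spermatids, against 193.3, 226.7, 242.9 and 209.7 in spermatocytes. None overlapped between stages, and the log2 differences were -1.15, -1.77 and -1.89. Reads of near-identical copies can be assigned to the wrong one or dropped, so the values of single copies are uncertain. Dnah6 fell by a smaller step, with 109.2, 82.4, 92.4 and 77.2 RPM in round spermatids, against 81.1, 114.6, 156.7 and 145.1 in spermatocytes. Its libraries overlapped, its log2 difference was -0.43 ± 0.15 (SE, limma adjusted p = 0.019), and with median-ratio scaling it was -0.002, with an adjusted p of 0.99. It also missed the threshold without any one of 4 of the libraries: the second of either round spermatid group (adjusted p = 0.059 and 0.075), the second of the first spermatocyte group (0.11) and the first of the second (0.059). Along the gene its events ran from -1.20 and -0.98 at 42.3% and 32.7% from the 5′ end to -0.26 at 96.7%, so the event given, at 68.0%, is among the smaller falls. Dnah12 likewise ran from -1.81 at 23.7% to -1.06 at 97.1%, and Dnah7a from -2.34 at 1.7% to -1.09 at 83.2%. Dnah10, another inner arm heavy chain, did not pass, with means of 61.5 ± 8.6 in round spermatids and 57.0 ± 11.8 in spermatocytes (SD, n = 4 each).

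Dnah3, an inner arm heavy chain, went the other way. It had 97.3, 144.8, 126.8 and 111.6 RPM in round spermatids, against 8.32, 7.80, 4.99 and 8.88 in spermatocytes. The means were 120.1 ± 20.4 and 7.50 ± 1.73 in the same order of stages (SD, n = 4 each), 16.0-fold higher in round spermatids. The log2 difference was 4.01 ± 0.20 (SE, limma adjusted p = 2.2e-09). Its other common event, near the 5′ end, was higher by 3.58. Dnah9 also rose, but on few reads: 13, 21, 28 and 42 in round spermatids, against 1, 1, 0 and 3 in spermatocytes. Its fitted log2 difference was 4.08 ± 0.76 (SE, limma adjusted p = 0.00030), which was 3.06 with 2 reads added in place of 0.5 and 2.78 with all its events summed. The rise of both genes moved with the round spermatid and elongating spermatid marker sums given above, whose part in it was not tested.

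**Figure D1:**
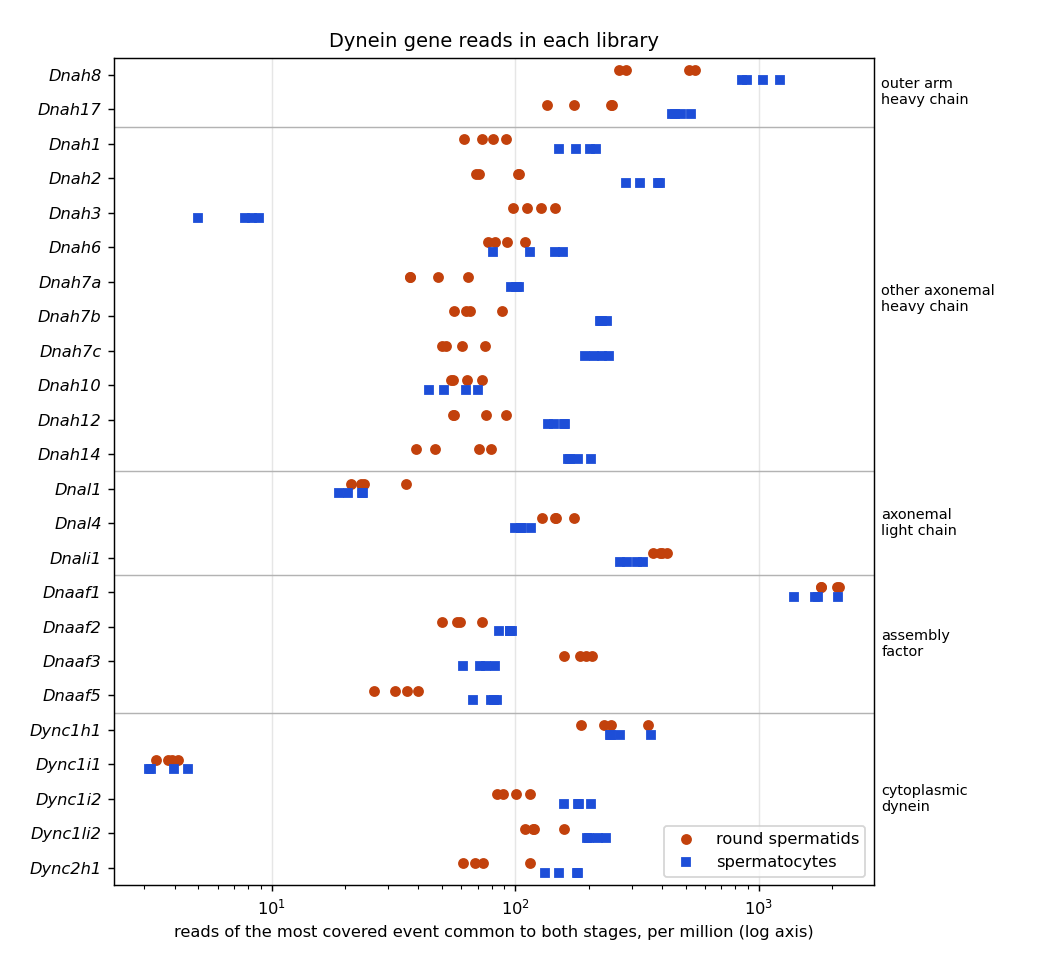
RPM (log axis) of each dynein gene in the 4 round spermatid libraries (orange circles) and the 4 spermatocyte libraries (blue squares), for the most covered event common to both stages, grouped by role. Dnah9 and Dnah11 are left out because they had few reads. Dnah3 lies at 97.3 to 144.8 in round spermatids and at 4.99 to 8.88 in spermatocytes, while Dnah2 and the Dnah7 copies lie lower in every round spermatid library.

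Of the 3 light chains, 2 rose and none fell. Dnal4 had 173.7, 146.1, 147.4 and 128.3 RPM in round spermatids, against 105.8, 99.8, 116.3 and 105.8 in spermatocytes. The log2 difference was 0.47 ± 0.12 (SE, limma adjusted p = 0.0032). Dnali1, a light intermediate chain of inner arms, had 368.2, 401.5, 392.0 and 417.7 in round spermatids, against 267.6, 287.2, 316.1 and 333.5 in spermatocytes. Its log2 difference was 0.39 ± 0.10 (SE, limma adjusted p = 0.0035), and neither gene overlapped between stages. Dnal1, an outer arm light chain that binds the heavy chain motor, averaged 25.9 ± 6.5 in round spermatids and 21.7 ± 2.3 in spermatocytes (SD, n = 4 each). It did not pass the test (adjusted p = 0.26), but did with median-ratio scaling.

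The assembly factors split. Dnaaf5, a HEAT-repeat protein, had 32.0, 39.7, 26.2 and 35.8 RPM in round spermatids, against 81.4, 83.9, 67.2 and 79.1 in spermatocytes, a log2 difference of -1.23 ± 0.15 (SE, limma adjusted p = 8.5e-06). Dnaaf2, which acts with chaperones, averaged 60.0 ± 9.7 in round spermatids and 93.2 ± 4.9 in spermatocytes (SD, n = 4 each). Its log2 difference of -0.65 ± 0.13 passed the test, but not with median-ratio scaling, where it was -0.22. Dnaaf1 did not pass, with means of 1955 ± 179 in round spermatids and 1734 ± 293 in spermatocytes (SD, n = 4 each) and an adjusted p of 0.18. With median-ratio scaling Dnaaf1 passed as higher, by 0.61, and so did Dnah10, by 0.55.

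Dnaaf3 showed 2 directions along its length. Its most covered event, a 75-nucleotide exon on chromosome 7 (mm10, 4523938 to 4524012) at 89.1% of the gene from the 5′ end, had 158.3, 206.5, 184.4 and 195.7 RPM in round spermatids, against 71.8, 60.8, 76.0 and 82.4 in spermatocytes. That is a log2 difference of 1.36 ± 0.13 (SE, limma adjusted p = 7.6e-07). The other 9 common events, at 2.7% to 55.8% of the gene, were all lower, from -1.03 to -0.39. The sum over all its events differed by -0.09 (adjusted p = 0.39). The value of the single event thus does not stand for the whole gene, and a rise of Dnaaf3 is not reported. Among the other genes with several common events, Dnah10 was split 4 and 4, all between -0.25 and 0.14. In each of the others every event lay on 1 side of 0, such as 42 of 42 lower in Dnah8 and 30 of 30 lower in Dnah14.

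**Figure D2:**
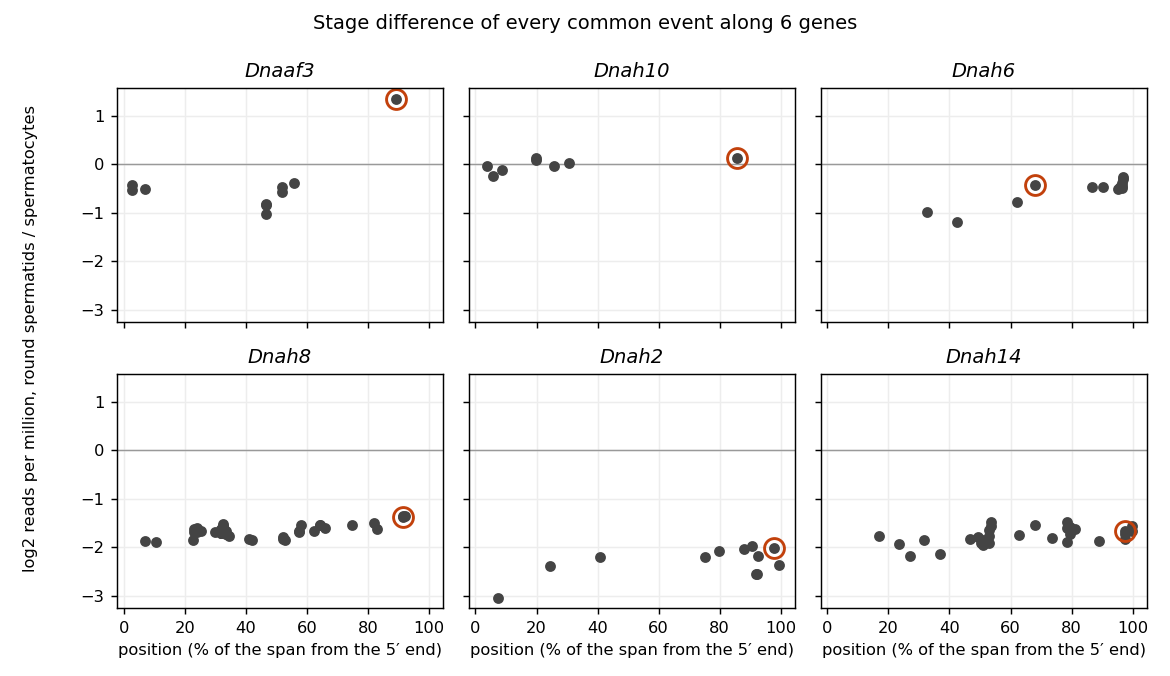
Log2 ratio of RPM, round spermatids over spermatocytes, for every event common to both stages (points), against its place along the gene in percent from the 5′ end, for 6 dynein genes. The circled point is the most covered event. In Dnaaf3 the circled event is at 1.36 and the other 9 are below 0, while the events of Dnah8, Dnah2 and Dnah14 all lie below 0.

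The cytoplasmic dynein subunits fell or did not pass. Dync1i2, an intermediate chain of dynein 1 that binds cargo adaptors, averaged 97.0 ± 13.99 RPM in round spermatids and 181.5 ± 18.8 in spermatocytes (SD, n = 4 each). Dync1li2, a light intermediate chain, averaged 126.2 ± 21.9 in round spermatids and 212.7 ± 17.9 in spermatocytes. Dync2h1, the heavy chain of dynein 2, averaged 79.3 ± 24.1 in round spermatids and 161.0 ± 23.7 in spermatocytes. Their log2 differences of -0.91, -0.76 and -1.05 passed the test, with SEs from 0.13 to 0.15, and none of the 3 overlapped between stages. The 6 common events of Dync1li2 were all lower, from -1.34 to -0.24, so the size of its fall depends on the event. Without the first library of the first spermatocyte group another event became its most covered one. The Dync1li2 difference was then -0.27 and did not pass. Dync1h1, the motor of dynein 1, averaged 253.3 ± 68.6 in round spermatids and 280.2 ± 53.5 in spermatocytes (adjusted p = 0.34). Dync1i1, the form known mainly from neurons, averaged 3.78 ± 0.33 in round spermatids and 3.71 ± 0.68 in spermatocytes (adjusted p = 0.90). Dync1li1 had 16.0 to 19.2 and Dync2li1 58.2 to 90.2 RPM over the spermatocyte libraries.

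Other genes of the dynein arms and their partners were taken from lists of known members. Of 14 arm subunits outside the symbol rule, 3 rose and 6 fell, where 28.5% of all genes rose and 49.8% fell. With median-ratio scaling 7 were higher and 0 lower, so the falls depend on the scaling. Tctex1d1, a light chain relative, averaged 130.6 ± 45.4 RPM in round spermatids and 8.19 ± 2.31 in spermatocytes (SD, n = 4 each). Dnaic2, the outer arm intermediate chain, rose by 0.60. Of 14 preassembly factors under other symbols, 3 rose and 9 fell, and with median-ratio scaling 5 were higher and 5 lower. Zmynd10, a co-chaperone adaptor, averaged 275.0 ± 42.2 in round spermatids and 644.1 ± 69.7 in spermatocytes, and Dyx1c1 (now Dnaaf4) averaged 34.0 ± 6.4 in round spermatids and 165.4 ± 14.2 in spermatocytes. Of 16 docking and nexin-dynein regulatory genes, 7 rose and 3 fell, and with median-ratio scaling 12 were higher and 3 lower. Ccdc63 averaged 391.0 ± 64.1 in round spermatids and 18.3 ± 1.0 in spermatocytes, while Ccdc39, part of the ruler that spaces inner arms, fell by 1.33 on the log2 scale. Of 25 dynactin and cytoplasmic dynein adaptor genes, 6 rose and 12 fell, and with median-ratio scaling 11 were higher and 8 lower. Hook1, an adaptor that links dynein to cargo, rose by 1.2, and the dynactin subunit Dctn5 fell by 1.52. The median log2 differences of these lists were -0.17, -0.48, 0.18 and -0.32, beside -0.45 over all genes.

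Most tested dynein cassettes were included in nearly every transcript, as were those of all genes. In round spermatids 192 of 282 tested cassette events of dynein genes had a mean inclusion above 99%, and in spermatocytes 382 of 490 did. The median inclusion in round spermatids was 99.61% for dynein cassettes and 99.25% for all cassettes. In spermatocytes it was 99.8% and 99.29%. The level lies near that of all genes and is no result about dyneins. Only 13 cassettes of 8 genes in round spermatids and 25 cassettes of 11 genes in spermatocytes had a mean inclusion between 5% and 95% with at least 10 reads of the rarer form per library. Of the dynein cassette events tested, 46.8% in round spermatids and 46.7% in spermatocytes had a length divisible by 3. The share over all genes is not given here. Among dynein genes with no called event, the event with the most reads of the rarer form showed little alternative use in several. A 40-nucleotide exon of Dnal1 was included at 0.33% to 1.98% in round spermatids and at 2.90% to 3.92% in spermatocytes (adjusted p = 0.12). A 3-nucleotide extension at an acceptor site of Dync1i2 was included at 94.01% to 95.9% in round spermatids and 94.5% to 95.9% in spermatocytes. An intron of Dnah10 was retained at 12.9% to 17.99% in round spermatids and at 12.5% to 14.2% in spermatocytes (adjusted p = 0.43). Among events common to both stages, the cassette with the most reads of the rarer form lay at 98.4% or above in every library in Dnaaf2, Dnaaf5 and Dync1h1.

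A 167-nucleotide exon of Dnah2 (chromosome 11, 69539398 to 69539564) was mostly skipped. Its inclusion was 36.1%, 19.1%, 35.5% and 29.2% in round spermatids, on 6 to 33 reads per library, against 30.6%, 18.9%, 20.2% and 30.7% in spermatocytes. The stages overlapped, and the difference did not pass (adjusted p = 0.71). Dnah5, Dnah9, Dnah11 and Dync1i1 had too few reads of the rarer form to follow any exon.

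Between stages, 32 dynein events in 12 genes were called out of 237 tested in 25 genes, which is 13.5%, against 11.7% of all 34455 events. By direction, 29 had higher and 3 lower inclusion in round spermatids, where 6.32% of all events were called higher and 5.35% lower. The 32 comprise 30 cassette events on 27 exons and 2 exon pairs. Of the 32, 20 moved by less than 5 points, and 25 of the cassettes had a mean inclusion above 90% in spermatocytes already. High inclusion is no trait of the called events. Of all 202 dynein cassettes tested between stages, 177 had a mean inclusion above 95%. The median was 99.28% for these and 98.34% for the cassettes of all genes. Of the 30 cassettes, 23 had a length not divisible by 3 and 7 had one divisible by 3. Of the 202 dynein cassettes tested between stages, 46.0% had a length divisible by 3. For 20 of the 32 events the stages did not overlap. The shares of both traits over all genes are not given here, so neither count is a result about dyneins. Leaving out single libraries gave 16 to 26 calls, with 16 and 17 when the second library of either round spermatid group was dropped, and 17 and 18 when one of the libraries of the first spermatocyte group was dropped. The called genes were Dnaaf1 (5 events), Dnah1, Dnah12, Dnah14 (8), Dnah17 (2), Dnah7a, Dnah7b (2), Dnah7c (2), Dnah8 (5), Dnali1, Dync1li2 (3) and Dync2h1.

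The largest step was in Dync1li2. A 119-nucleotide exon (mm10, chromosome 8, 104421285 to 104421403), at 85.5% of the gene from the 5′ end, was included at 36.4% and 32.1% in the round spermatid libraries of the first group, against 43.3% and 33.1% in those of the second. In spermatocytes it was included at 20.4% and 25.3% in libraries of the first sample group, against 18.8% and 22.5% in those of the second. Every round spermatid library was above every spermatocyte library, and the mean difference was 14.5 points (log2 odds 0.996 ± 0.21 SE, limma adjusted p = 0.00088). A neighbouring 42-nucleotide exon of the same gene was included at 93.95% to 96.4% in round spermatids and at 88.995% to 92.8% in spermatocytes (adjusted p = 0.0059, held under 9 of 15 alternatives). The called event of Dync1li2 with the most reads of the rarer form was a pair of that exon with the next one. Its share of the 42-nucleotide exon was 59.5%, 66.97%, 57.1% and 70.2% in round spermatids, against 49.1%, 55.2%, 50.6% and 59.4% in spermatocytes (adjusted p = 0.024, held under 7 of 15 alternatives). As cassettes both exons of the pair were included at over 88% in every library, so the 2 are not alternatives and the value compares their coverage.

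Dnah7a carried a 127-nucleotide exon (chromosome 1, 53448929 to 53449055) that was skipped more often in spermatocytes. Its inclusion was 96.1%, 96.7%, 94.9% and 98.4% in round spermatids, against 78.3%, 82.0%, 85.8% and 88.3% in spermatocytes. The skipped form had 10, 11, 11 and 3 reads in round spermatids and 84, 131, 70 and 63 in spermatocytes. The difference was 12.9 points with no overlap (log2 odds 2.42 ± 0.28 SE, limma adjusted p = 4.9e-08). In the related Dnah7b a 186-nucleotide exon was included at 96.1%, 96.8%, 98.1% and 98.9% in round spermatids, against 90.3%, 93.5%, 97.1% and 96.6% in spermatocytes, and the stages overlapped (adjusted p = 0.018, held under 8 of 15 alternatives). In Dnah7c a 169-nucleotide exon was included at 97.8%, 100%, 97.2% and 96.2% in round spermatids, against 91.99%, 91.3%, 94.2% and 95.7% in spermatocytes (adjusted p = 0.0092, held under 5 of 15 alternatives). Read sharing among the 3 copies makes these values uncertain.

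Dnah14 held 8 called events, all with higher inclusion in round spermatids. A 122-nucleotide exon on chromosome 1 (181763850 to 181763971) was included at 89.6%, 88.1%, 82.1% and 85.8% in round spermatids, against 74.4%, 76.2%, 68.5% and 76.9% in spermatocytes. The difference was 12.4 points with no overlap (log2 odds 1.15 ± 0.30 SE, limma adjusted p = 0.0065). The adjacent 245-nucleotide exon was higher by 10.5 points when read with the same flanks, and the 2 events share their skipping reads. These exons lie at 78.6% and 79.6% of the gene from the 5′ end. A 103-nucleotide exon further on was included at 99.4%, 99.7%, 98.8% and 96.7% in round spermatids, against 91.6%, 93.4%, 92.3% and 95.2% in spermatocytes (adjusted p = 2.1e-06).

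Dnah17 had an exon on chromosome 11 (118036332 to 118036480) included at 98.5%, 96.6%, 98.3% and 97.8% in round spermatids, against 92.3%, 89.6%, 92.7% and 94.1% in spermatocytes. No libraries overlapped (log2 odds 1.98 ± 0.26 SE, limma adjusted p = 4.9e-07). In Dnaaf1 the called event with the most reads of the rarer form was a 136-nucleotide exon at 98.8%, 99.2%, 98.4% and 99.4% in round spermatids, against 98.6%, 98.3%, 97.9% and 98.6% in spermatocytes (adjusted p = 0.0050, held under 7 of 15 alternatives). Its libraries overlapped and the step was 0.62 points. Reads that joined positions 119579319 and 119590579 of Dnaaf1 left out its 167- and 122-nucleotide exons and also the exon at 119582509 to 119582730. They numbered 3, 1, 0 and 0 in round spermatids, against 19, 41, 12 and 7 in spermatocytes, and this count served 2 called events. Dnaaf1 reads did not differ between stages by the test, as given above.

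In Dnah8 the 5 called steps were all under 1 point. A 127-nucleotide exon, which had the most reads of the rarer form, was included at 99.7%, 99.9%, 99.2% and 99.1% in round spermatids, against 99.1%, 98.5%, 98.6% and 99.4% in spermatocytes (adjusted p = 0.042), a call that held under 3 of 15 alternatives. A 110-nucleotide exon had 1, 1, 1 and 0 skipping reads in round spermatids, against 27, 52, 21 and 17 in spermatocytes (adjusted p = 5.1e-06). In Dnah1 a 145-nucleotide exon was included at 99.3%, 99.8%, 99.5% and 100% in round spermatids, against 94.4%, 96.5%, 98.4% and 99.1% in spermatocytes (adjusted p = 0.00025).

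The 3 events with lower inclusion in round spermatids were in Dync2h1, Dnah12 and Dnali1. A 76-nucleotide exon of Dync2h1 (chromosome 9, 6996864 to 6996939) was included at 93.5%, 92.8%, 83.6% and 86.5% in round spermatids, against 95.1%, 95.05%, 97.997% and 96.1% in spermatocytes. The stages did not overlap (log2 odds -1.52 ± 0.34 SE, limma adjusted p = 0.0016). The 2 round spermatid groups also stood apart, by 8.1 points, with the lower values in the second (limma adjusted p = 0.60). The authors' deposited FDR between those groups was 0.0088. The size of the stage difference thus depends on the sample group. A 141-nucleotide exon of Dnah12 was included at 97.4%, 94.4%, 91.9% and 94.1% in round spermatids, against 99.4%, 99.4%, 99.7% and 99.3% in spermatocytes (adjusted p = 0.011). Its skipping reads numbered 5, 9, 9 and 6 in round spermatids and 2, 4, 1 and 3 in spermatocytes. The Dnali1 event was a pair of exons with a share of 41.6%, 28.7%, 34.9% and 32.2% in round spermatids, against 53.8%, 45.3%, 37.2% and 46.9% in spermatocytes (adjusted p = 0.0011, held under 9 of 15 alternatives). As cassettes, both of its exons were included at 99.2% or more in every library, so the value compares coverage of 2 constant exons.

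**Figure D3:**
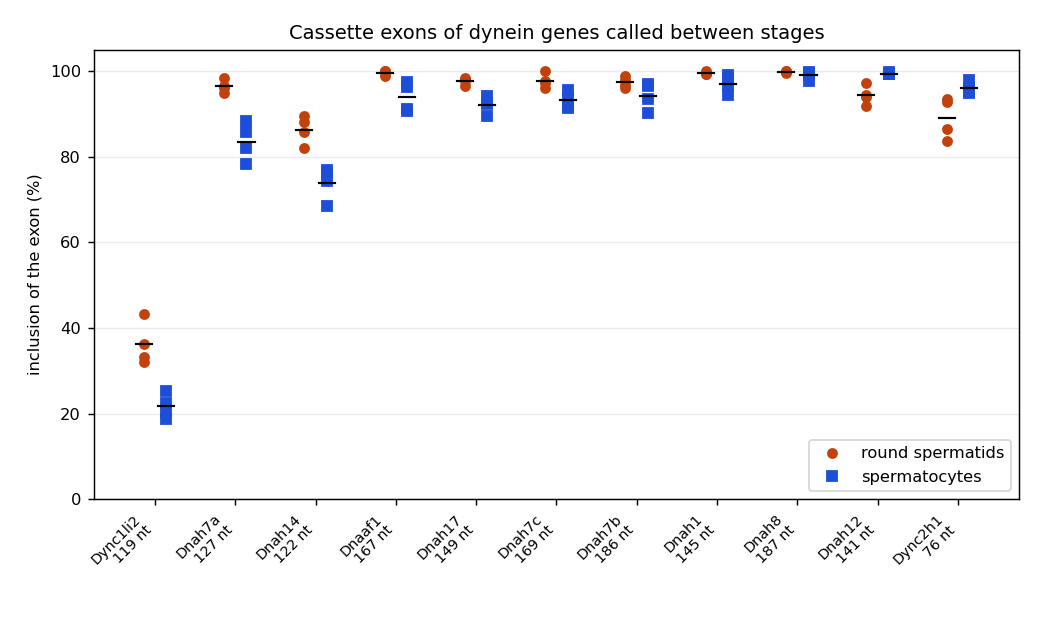
Inclusion in percent of the called cassette exon with the largest mean difference in each of 11 dynein genes, in round spermatid libraries (orange circles, left) and spermatocyte libraries (blue squares, right), with the mean as a black line. Dync1li2, Dnah7a and Dnah14 stand out by 14.5, 12.9 and 12.4 points, and most other exons lie above 90% in both stages.

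Within a stage, RPM come from the most covered event of that stage, so they differ from those given between stages. Between the sample groups of round spermatids, 0 of 26 dynein genes passed limma for reads, where 0.0859% of all genes did. At an unadjusted p below 0.05 there were 6 dynein genes of 26, where 11% of all genes were. In 10 of the 26 the first sample group lay wholly above the second, where 25.3% of all genes did, and 8 of the 10 were axonemal heavy chains. In 3 it lay wholly below, where 17.6% of all genes did: Dync1i1 and the outer arm heavy chains Dnah5 and Dnah9, all on few reads. Dnah8 had 454.5 and 462.0 RPM in libraries of the first sample group, against 242.8 and 243.1 in those of the second. The log2 difference was 0.92 ± 0.20 (SE, limma adjusted p = 0.16), and the groups did not overlap. Dnah17 had 221.0 and 215.1 in libraries of the first sample group, against 116.9 and 151.6 in those of the second, and Dnah14 had 57.8 and 75.9 in libraries of the first sample group, against 27.6 and 44.5 in those of the second. In Dnah8 and Dnah17 the gap between groups was larger than the spread within them, in Dnah14 it was smaller, and none of the 3 passed. Dnah12 had 81.6 and 66.1 in libraries of the first sample group, against 48.3 and 48.9 in those of the second, and Dnah2 had 100.9 and 94.1 in libraries of the first sample group, against 65.8 and 65.4 in those of the second. The light chains, the assembly factors, Dnah3, Dnah6, Dnah7b, Dnah10, Dync1i2 and Dync1li2 overlapped between groups. In Dnah3, for one, the first group had 105.1 and 145.9 RPM and the second 140.9 and 126.2.

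Beside these values, the 12 spermatocyte markers summed to 9839 and 6690 RPM in the round spermatid libraries of the first group, against 8021 and 6550 in those of the second. Most of that sum was Ldhc, which averaged 6527 ± 2205 in the first group and 5717 ± 1184 in the second (SD, n = 2 each). The 5 elongating spermatid markers in the tables summed to 13270 and 15340 in libraries of the first sample group, against 21070 and 16570 in those of the second. Their part in the heavy chain values was not tested.

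In spermatocytes 1 of 26 dynein genes changed for reads, where 5.76% of all genes did. At an unadjusted p below 0.05 there were 3 of 26, where 25% of all genes were. In 10 of the 26 the first sample group lay wholly below the second, where 17% of all genes did, and in 4 wholly above, where 40.5% did. Dnah10 had 46.5 and 45.3 RPM in libraries of the first sample group, against 67.3 and 74.6 in those of the second, means of 45.9 ± 0.8 and 71.0 ± 5.2 (SD, n = 2 each). It fell by 0.63 on the log2 scale (SE 0.17, limma adjusted p = 0.046). The call rests on each library: without any one of them the adjusted p lay between 0.072 and 0.25. The event used here was not the retained intron named above, which gave the Dnah10 reads between stages. In spermatocytes the intron event had 415, 719, 628 and 715 reads, against 470, 904, 818 and 920 for the event used here. With all Dnah10 events summed the difference was -0.69 (adjusted p = 0.019). Dnah6 had 96.1 and 115.0 in libraries of the first sample group, against 135.8 and 164.9 in those of the second, with an adjusted p of 0.075, and it passed with median-ratio scaling (0.030). Dnah8 had 711.4 and 998.9 in libraries of the first sample group, against 815.3 and 873.4 in those of the second, so its groups overlapped, in contrast to the values of round spermatids. The difference between stages was not tested, because the sample group numbers cannot be matched across stages.

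The spermatocyte groups also differed in other markers. The 7 spermatogonia markers in the tables, of 10 listed, summed to 233.1 and 60.5 RPM in libraries of the first sample group, against 19.2 and 25.1 in those of the second, and 5 of 7 passed as higher. The 12 somatic testis markers in the tables summed to 272.1 and 176.2 in libraries of the first sample group, against 75.6 and 114.5 in those of the second. The 12 spermatocyte markers summed to 14000 and 13140 in libraries of the first sample group, against 13380 and 11160 in those of the second, and 6 of 12 passed as higher. The 12 round spermatid markers summed to 1624 and 1700 in libraries of the first sample group, against 1891 and 1903 in those of the second. The 5 elongating spermatid markers summed to 2094 and 2394 in libraries of the first sample group, against 3040 and 2854 in those of the second. Most of this last sum was Odf2, which averaged 1577 ± 254 in the first group and 2155 ± 247 in the second (SD, n = 2 each). None of these 12 and 5 markers passed the test. The part of these marker differences in the Dnah10 value was not tested.

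**Figure D4:**
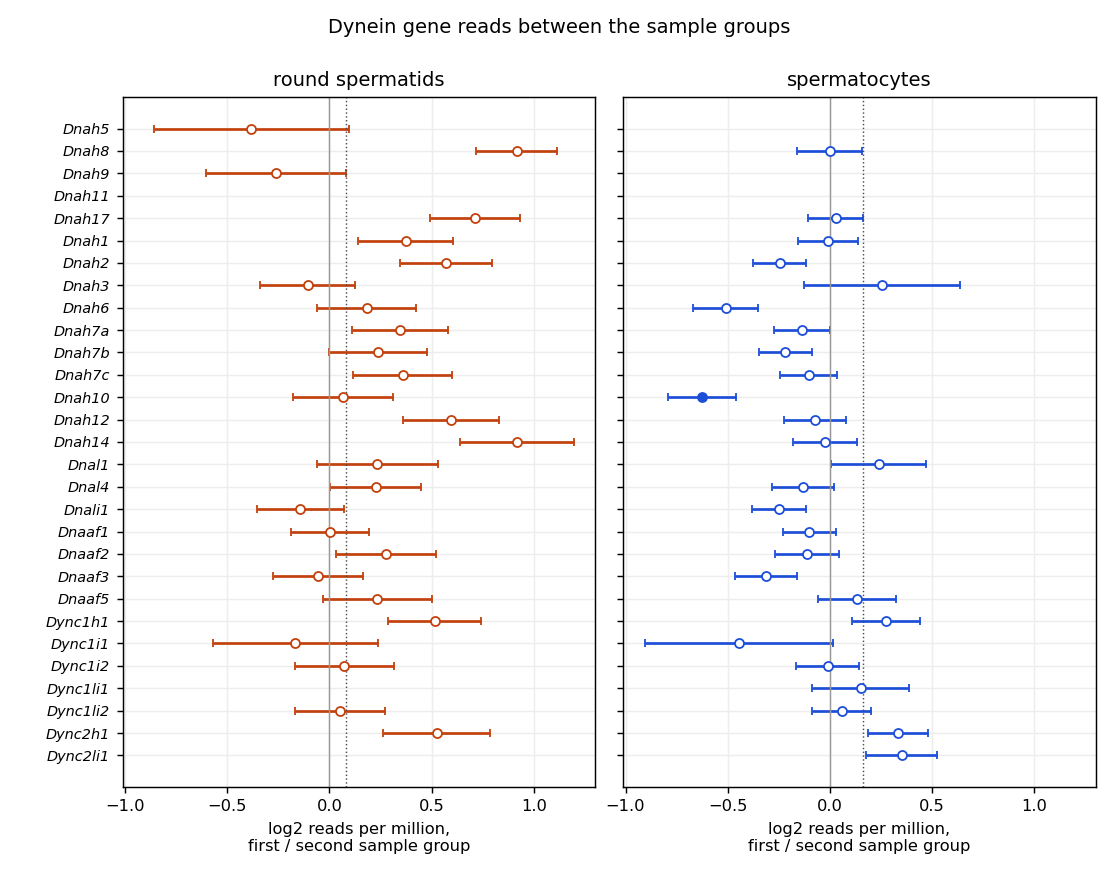
Log2 ratio of RPM, first over second sample group, of each dynein gene in round spermatids (left) and spermatocytes (right), with standard errors from limma. The filled point, Dnah10 in spermatocytes, is the value that passed, and the dotted line is the median of all genes. Dnah8 lies at 0.92 in round spermatids and near 0 in spermatocytes.

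No dynein event was called between sample groups. In round spermatids 0 of 347 tested events passed limma, where 0.131% of all events did, and 11 had an unadjusted p below 0.05 (3.17%, against 5.27% of all events). In spermatocytes 0 of 644 passed, where 0.281% did, and 49 had an unadjusted p below 0.05 (7.61%, against 8.28% of all events). A quasi-binomial test called 0 in both stages. In the authors' deposited table, the FDR was below 0.05 for 1 of 359 dynein events in round spermatids, where 2.59% of all events were, and for 12 of 662 in spermatocytes, where 4.96% were. Groups that did not overlap and stood at least 10 points apart were seen for 1 dynein event in round spermatids, where 4.02% of all events met this, and for 4 in spermatocytes, where 4.52% did.

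In spermatocytes 1 of the 4 was a 67-nucleotide exon of Dnal4 (mm10, chromosome 15, 79765787 to 79765853). It was included at 53.0% and 54.3% in libraries of the first sample group, against 64.3% and 64.8% in those of the second, a difference of -10.9 points (log2 odds -0.64 ± 0.19 SE, limma adjusted p = 0.26). In the authors' deposited table its FDR was 0.0067. In round spermatids its inclusion was 58.3% and 54.5% in libraries of the first sample group, against 65.7% and 62.7% in those of the second, again with no overlap (adjusted p = 0.81). Its length is not divisible by 3, and its mean inclusion over the 8 libraries was 59.7%.

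A 63-nucleotide exon of Dnah7c (chromosome 1, 46440473 to 46440535) was included at 41.8% and 43.3% in the spermatocyte libraries of the first group, against 53.7% and 53.2% in those of the second (limma adjusted p = 0.45). In round spermatids it was at 57.5% and 55.7% in libraries of the first sample group, against 65.5% and 60.8% in those of the second. Every round spermatid library lay above every spermatocyte library, though the stage difference of 11.9 points did not pass (adjusted p = 0.15). A pair of Dnaaf3 exons had a share of 41.5% and 38.2% in the spermatocyte libraries of the first group, against 51.1% and 50.2% in those of the second (adjusted p = 0.48). Both exons were also tested as cassettes for 144 dynein pairs in spermatocytes. In 121 of these both had a mean inclusion above 95%, so such a share can compare coverage rather than alternative use. A 159-nucleotide exon of Dnah14 was at 89.9% and 87.7% in libraries of the first sample group, against 100% and 100% in those of the second, on 2, 5, 0 and 0 skipping reads (adjusted p = 0.50). The event in round spermatids was a 109-nucleotide exon of Dnah7a, at 62.9% and 61.4% in libraries of the first sample group, against 75.1% and 73.9% in those of the second (adjusted p = 0.81), on 10 to 16 skipping reads per library. In spermatocytes that exon was at 62.7% and 64.4% in libraries of the first sample group, against 79.4% and 66.0% in those of the second. All of these were lower in the first sample group of their stage, and none passed. Called events of all genes leaned the same way, with 140 lower and 32 higher in spermatocytes. In round spermatids 43 were lower and 20 higher. Those events were called, unlike the dynein events here, which were taken for standing at least 10 points apart without overlap. The direction of all events taken in that way is not given, so the shared direction is not read as a result about dyneins.

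**Figure D5:**
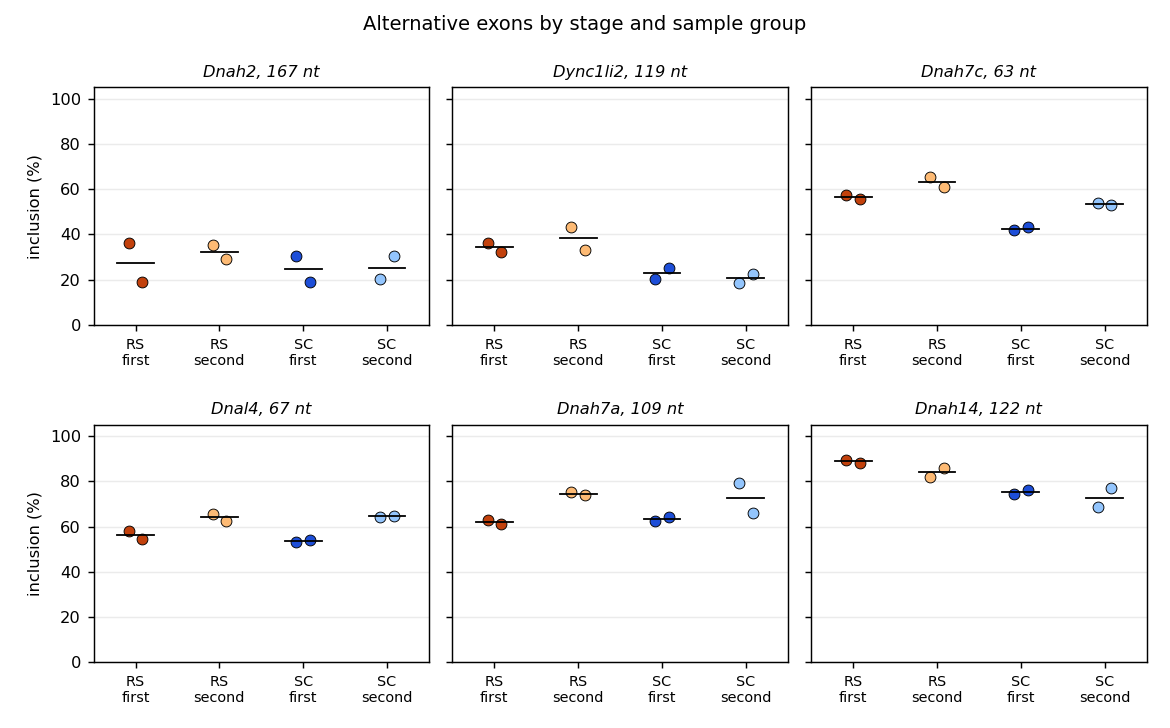
Inclusion in percent of the 6 alternative cassette exons of dynein genes with the lowest mean inclusion, in each library (points) with group means (lines), for round spermatids (RS) and spermatocytes (SC), first and second sample group. The Dnal4 exon lies at 53.0% to 65.7% in all libraries with the first sample group lower in both stages, and the Dync1li2 and Dnah14 exons lie higher in every round spermatid library.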

How the data were processed

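Polyadenylated RNA of 8 libraries was analysed from 10 deposited tables of splicing events. The submitters' processing notes name STAR and mm10, with no version, and strand handling is not given. Per the file headers, the deposited cells hold inclusion and skipping read counts (2 libraries per cell), form lengths, inclusion levels as fractions, and the authors' p-value and FDR. The deposited inclusion fraction was recomputed from the reads to within 0.0005.

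Events with a mean of at least 10 reads per library and a read of each form were tested. Log2 odds of inclusion, with 0.5 reads added on average, entered limma 3.58.1 (R 4.3.3) with weights set by the counting variance expected from the event's pooled inclusion, with the spread following reads of the rarer form. Weights from pooled inclusion were chosen after call counts with both weightings had been seen, because weights from each library's reads gave false calls on simulated data. Gene reads are those of the most covered event per 1000000 (RPM), fitted with limma on log2. Stage contrasts took the mean of the 2 round spermatid groups minus the mean of the 2 spermatocyte groups, so both genotypes entered each mean. The two-sided p-values got a Benjamini-Hochberg adjustment over all events or all genes, and below 0.05 counted as called. Alternatives were other weights, trends, filters and scalings, a quasi-binomial test and leaving out each library. Plots used matplotlib 3.10.9 in Python 3.11.15. Overlapping events share reads and library totals are unknown, so no confidence intervals are given. Full values are given for called events, for events at least 10 points apart without overlap and for called reads; other genes are given as levels. The dynein genes and lists were chosen with earlier results of these data known.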

Additional observations from a re-analysis of the deposited data

How the results depend on the processing

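The stage count of 32 called dynein events was 18 with the trend on total reads, 18 without count weights and 16 to 26 when each library was left out in turn (16 without the second library of the first round spermatid group, 17 without the second of the second round spermatid group, 17 without the first and 18 without the second library of the first spermatocyte group). Of the 32 events, 10 passed under all 15 alternatives: 3 of Dnaaf1, 2 of Dnah14 and 1 each of Dnah17, Dnah7a, Dnah8, Dync1li2 and Dync2h1. No called stage event changed sign. Of the 20 called stage reads, 16 kept their call under all alternatives that gave a value, the exceptions being Dnaaf2, Dnaaf3, Dnah6 and Dync1li2; the counts ranged from 18 to 22. The reads of Dnaaf3 reversed to -0.095 with all events summed, because 9 of its 10 events are lower.

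Between sample groups, the spermatocyte event count of 0 became 6 with unscaled 0.5 reads, 1 with weights from each library's reads (chosen after seeing the data), 12 by the FDR in the authors' deposited table and 0 to 129 with a library left out. The round spermatid count of 0 became 1 with unscaled reads, 1 by the authors' deposited table and 0 to 70 with a library left out. With 1 library left out, 1 group has a lone library that is assumed to vary like the other group. The spermatocyte read count of 1 became 2 with median-ratio scaling, 0 with no filter on reads and 0 to 1 with a library left out; the round spermatid read count of 0 became 0 to 5. The causes were not tested. No paired analysis was possible because the columns carry no replicate numbers. Depth limits Dnah5, Dnah9, Dnah11 and Dync1i1.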
